A study of Caenorhabditis elegans with 12 samples.

Results

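The genes described here were the 10 *irg* and *dod* genes *irg-1*, *irg-2*, *irg-3*, *irg-4*, *irg-5*, *dod-17*, *dod-19*, *dod-21*, *dod-22* and *dod-24*. They were taken from the read count table by their symbols, a rule that uses no measured value, although the set was proposed with earlier results of these data known. All 10 were found among the 46934 genes of the table, and all 10 passed the filter on low counts that left 17946 genes to test. RNA of whole *Caenorhabditis elegans* on day 1 of adulthood was sequenced in 12 libraries. Of these, 3 came from *hsf-1*(*sy441*) mutants given a heat shock (30 min at 35 °C) followed by 1 h at 20 °C, and 3 from *hsf-1*(*sy441*) mutants without treatment (labelled K). The other 6 came from the wild type strain N2, 3 heat-shocked in the same way and 3 untreated. All animals were grown at 20 °C on *Escherichia coli* OP50, the standard laboratory food bacterium, and none was infected. HSF-1 is the transcription factor that induces heat shock proteins, and the *sy441* mutation shortens the protein so that it lacks its activation domain. The *hsf-1* transcript itself was therefore not a check of the genotype.

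The *irg* genes (infection response genes) are named for their induction when the bacterium *Pseudomonas aeruginosa* colonises the gut. The *dod* genes (downstream of DAF-16) are named for their dependence on DAF-16, the FOXO transcription factor held in check by the insulin-like receptor DAF-2, and the *dod* genes described here belong to the class whose transcripts are low when DAF-2 signalling is reduced. Both groups are used as readouts of intestinal innate immunity: *irg-1* and *irg-2* are induced through the bZIP factor ZIP-2, *irg-4* and *irg-5* through the p38 MAP kinase PMK-1, and several of the proteins, among them those of *irg-4*, *irg-5*, *dod-17*, *dod-21*, *dod-22* and *dod-24*, carry a secreted CUB-like domain. The GATA factor ELT-2 switches on intestinal genes through GATA sites upstream of them.

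For *dod-19* and *dod-22*, which were called higher in untreated mutants (below), the upstream GATA sites listed by the study within 1000 bases of the translation start are shown, since ELT-2 and related factors bind such sites. The sites come from a list that held only upregulated genes and that was shortened, so nothing was read from the absence of the other genes, and how often such sites occur upstream of all genes was not counted here. Each site is written 5′ to 3′ in the orientation in which GATAA reads, with that core in capitals.
*dod-19*, site A: ctgtaactGATAAaagtttaac
*dod-19*, site B: gatGATAAgctta
*dod-19*, site C: gtaggcGATAAggcgat
*dod-19*, site D: tGATAAcg
*dod-22*, site A: actGATAAgttat
*dod-22*, site B: ctactagcGATAAgggttgatc
Only distinct listed sequences holding GATAA are shown, without those contained in a longer one. Counted in this way, *dod-19* had 4 sites and *dod-22* had 2.

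All 10 genes are protein coding, and they lie on chromosomes IV and V of the WBcel235 genome build. On chromosome V, *irg-3* spans 2592591 to 2595062 and *irg-1* spans 3523587 to 3524679, both on the plus strand. *irg-2* lies at 4042181 to 4043601 on the plus strand of the same chromosome. The minus strand of chromosome V holds *dod-19* at 411782 to 414759 and *irg-5* at 13737010 to 13738474. On chromosome IV, *irg-4* lies alone at 12435833 to 12438236 on the plus strand. The remaining *dod* genes form a group on chromosome IV: *dod-21* at 12936738 to 12937988, *dod-24* at 12940106 to 12941354 (minus strand), *dod-22* at 12965374 to 12967392 and *dod-17* at 12976303 to 12978343. None of the 10 shares an exon base with another annotated gene. Transcript ends beyond the annotation were not examined.

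Total counts were 68188334 to 109248499 per library. Replicates of each group differed by 13.1 to 155 times the variance expected from counting alone (median over genes), so no pair of libraries looked like the same library deposited again. The titles call the replicates biological, without saying whether they were separate cultures, and p-values therefore measure the spread between these samples. Heat shock genes followed the labelled treatment: of 13 heat shock genes, 9 rose in heat-shocked against untreated mutants, and 7 rose in heat-shocked against untreated wild type. The heat-inducible chaperone gene *hsp-16.2* was lower in untreated mutants than in untreated wild type (log2 fold change -1.69, adjusted p = 0.0281, edgeR quasi-likelihood test with Benjamini-Hochberg adjustment), a call not made without replicate 1 of the untreated mutants.

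The mutant libraries numbered 1 stood apart for these genes. All 10 genes were highest of their group in replicate 1 of the heat-shocked mutants and in replicate 1 of the untreated mutants, against 38.8% and 43.3% of all tested genes in the same libraries. The summed level of the 10 genes was 799.8, 245 and 318 CPM (counts scaled to the TMM-adjusted library size) in heat-shocked mutants, replicates 1 to 3, and 1018, 196 and 220 CPM in untreated mutants. Wild type had 162, 134 and 176 CPM after heat shock and 98.1, 104 and 122 CPM without treatment. In this sum each mutant library numbered 1 was thus above every other library. The other 4 mutant libraries still lay above all 6 wild type libraries. In those 4, *dod-19* held most of the sum, with 180 and 182 CPM in heat-shocked and 136 and 137 CPM in untreated mutants. It had 43.5 to 81.4 CPM in wild type. Sums without *dod-19* were not compared, so this order is not shown for the other genes as a set. Several of them overlapped between the genotypes (below). At least 2-fold more than the mean of the other replicates was found in replicate 1 of the untreated mutants for 10 of the 10 genes, against 12.7% of all tested genes, and in replicate 1 of the heat-shocked mutants for 8 of the 10, against 14.8%. The median ratio was 2.84 in heat-shocked and 4.03 in untreated mutants, against 1.00 and 1.03 over all tested genes. The same libraries held 7.34% and 7.41% of their counts in ribosomal RNA, against 1.01% to 4.21% in the others, and the highest summed levels of 4 pharynx markers (84.4 and 118 CPM, against 27.9 to 71.2 CPM in the other 10 libraries). The part of either in the results was not tested. Results are given with and without these libraries where they rest on them.

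**Figure D1:**
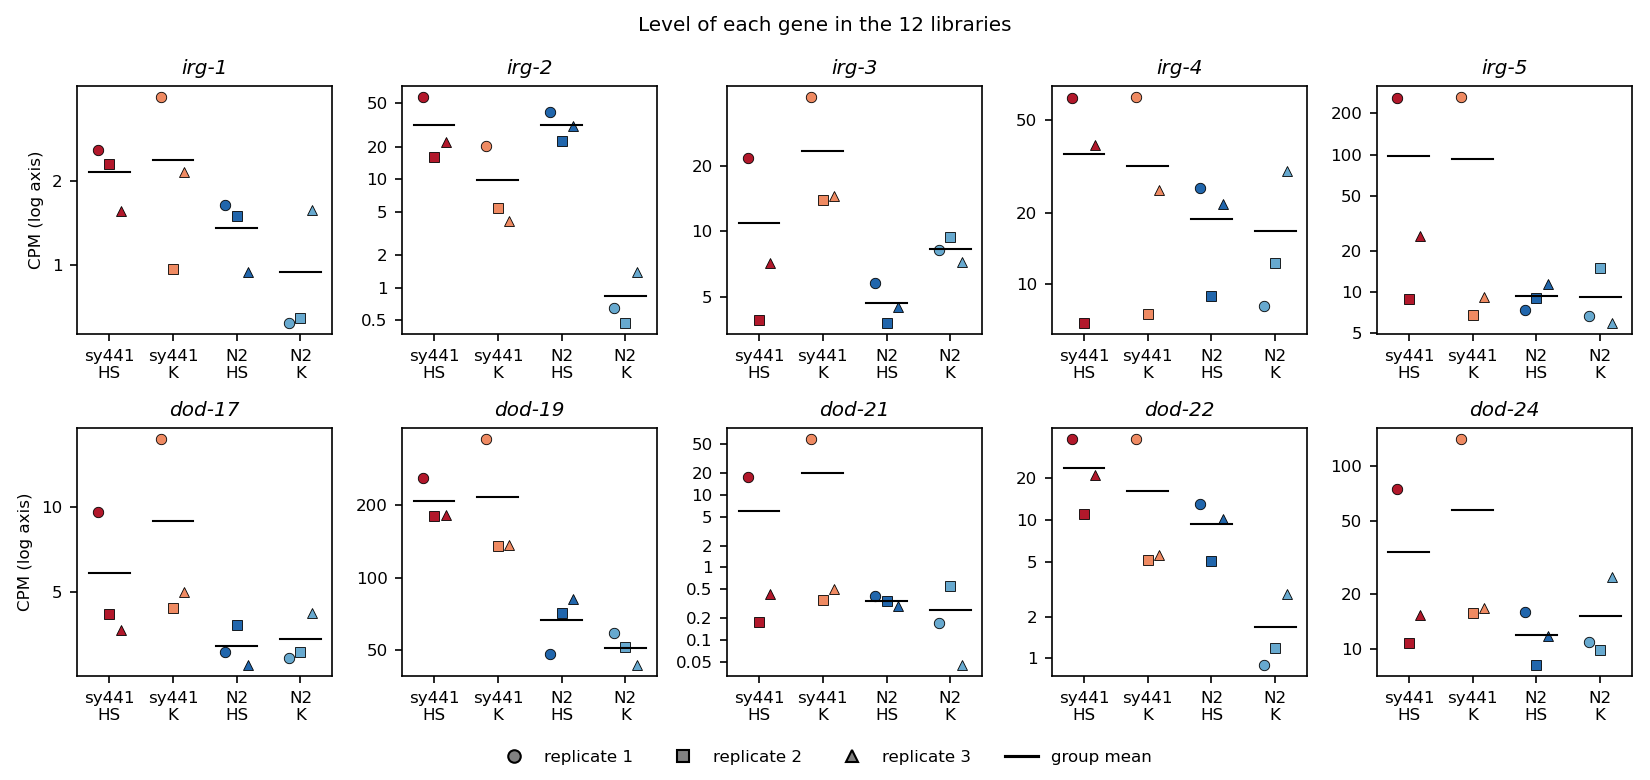
CPM of each of the 10 genes (log axis) in the 4 groups; each symbol is 1 library, its shape the replicate number, and the bar the group mean. The circles of both mutant groups (replicate 1) are the highest of their group in all 10 panels, with 261 and 257 CPM of *irg-5* in untreated and heat-shocked mutants.

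Mutants were compared with wild type at 20 °C to ask which genes the loss of HSF-1 function alters without heat. Of the 10 genes, 3 were higher in untreated mutants at an adjusted p under 0.05: *irg-2*, *dod-19* and *dod-22*. Over all tested genes, 6.83% passed in this comparison, 6.24% as higher. The fold change was above 0 for all 10 genes, against 57.8% of tested genes, with a median log2 fold change of 1.99 against 0.13 over all tested genes. In 5 of the 10 (*irg-2*, *irg-3*, *dod-17*, *dod-19* and *dod-22*) every mutant library was above every wild type library, which was so for 20.9% of tested genes. Without replicate 1 of the untreated mutants *irg-2* and *dod-19* still passed and the median log2 fold change of the 10 genes was 0.55, against -0.12 over all tested genes. Calls over all tested genes fell from 1226 to 280 in that fit. When replicate 1 of untreated wild type was left out, *dod-19* alone passed. Intestinal markers moved the same way: 5 of 12 were higher in untreated mutants, with a median log2 fold change of 0.81 and a summed level of 1860 to 2677 CPM in untreated mutants against 792 to 1270 CPM in untreated wild type. None of the 12 intestinal markers passed without replicate 1 of the untreated mutants (median 0.53). In RNA of whole animals a larger intestine and more RNA per intestinal cell cannot be told apart.

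*irg-2*, which encodes a protein of unknown function induced through ZIP-2, had 20.2, 5.42 and 4.15 CPM in untreated mutants, against 0.647, 0.476 and 1.39 CPM in untreated wild type. The groups did not overlap, and the lowest mutant library was above the highest wild type library. The log2 fold change was 3.56 ± 0.67 (SE, n = 3 per group, 11.8-fold, adjusted p = 0.00959, edgeR). It was 2.33 without replicate 1 of the untreated mutants (adjusted p = 0.0478) and the adjusted p over all 16 alternatives was 5.11e-07 to 0.0634, missing the threshold only without replicate 1 of untreated wild type. *irg-1*, the other ZIP-2-dependent gene, was much weaker. Its levels were 3.97, 0.968 and 2.14 CPM in untreated mutants and 0.621, 0.644 and 1.57 CPM in untreated wild type. Replicate 2 of the mutants lay below the highest wild type library, and the log2 fold change of 1.31 ± 0.53 (adjusted p = 0.148, edgeR) did not pass. Over all 16 alternatives its adjusted p was 0.0386 to 0.649. It passed only without replicate 3 of untreated and replicate 1 of heat-shocked wild type (log2 fold change 1.90).

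*dod-19* was the gene of the set with the most even difference. It had 375, 136 and 137 CPM in untreated mutants, against 59.0, 51.3 and 43.5 CPM in untreated wild type. Every mutant library was far above every wild type library, replicate 1 being the highest. The log2 fold change was 2.07 ± 0.37 (SE, n = 3 per group, 4.21-fold, adjusted p = 0.00701, edgeR), and 1.22 without replicate 1 of the untreated mutants (adjusted p = 0.0496). The gene passed in all 16 alternatives at 20 °C, with adjusted p from 4.78e-06 to 0.0496.

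*dod-22*, a CUB-like gene of the chromosome IV group, had 38.3, 5.18 and 5.55 CPM in untreated mutants and 0.898, 1.19 and 2.93 CPM in untreated wild type. The groups did not overlap, but the size of the difference came largely from replicate 1 of the mutants. The log2 fold change was 3.28 ± 0.80 (SE, n = 3 per group, 9.74-fold, adjusted p = 0.0288, edgeR). Without that library it was 1.51 (adjusted p = 0.191), and the gene passed in 8 of the 16 alternatives (adjusted p from 0.0037 to 0.204).

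*irg-3*, an infection response gene, had 41.4, 14.0 and 14.6 CPM in untreated mutants, against 8.20, 9.38 and 7.23 CPM in untreated wild type. *dod-17*, a CUB-like gene, had 17.5, 4.40 and 4.99 CPM in untreated mutants, against 2.92, 3.07 and 4.198 CPM in untreated wild type. In neither gene did the groups overlap, and in both the mutant replicates 2 and 3 lay close to each other and not far above wild type. The adjusted p was 0.114 for each, with log2 fold changes of 1.50 ± 0.55 for *irg-3* and 1.40 ± 0.51 for *dod-17* (edgeR). Without replicate 1 of the untreated mutants the values were 0.60 and 0.29.

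The other 4 genes overlapped between the groups. *irg-5*, a target of the PMK-1 pathway, had 261, 6.80 and 9.26 CPM in untreated mutants and 6.64, 15.1 and 5.97 CPM in untreated wild type. Only replicate 1 of the mutants was above wild type, and the log2 fold change of 3.32 ± 1.50 (adjusted p = 0.203, edgeR) was -0.39 without it. *dod-21*, a CUB-like gene, had 58.9, 0.351 and 0.500 CPM in untreated mutants and 0.172, 0.546 and 0.0453 CPM in untreated wild type, so that replicate 1 held 139 times the mean of the other 2 mutant libraries. Its log2 fold change of 6.31 ± 2.35 (adjusted p = 0.130, edgeR) was 0.57 without that library. *dod-24*, likewise a CUB-like gene, had 139.8, 15.8 and 16.9 CPM in untreated mutants and 10.9, 9.90 and 24.9 CPM in untreated wild type. *irg-4*, the other PMK-1-dependent gene, had 62.2, 7.43 and 25.1 CPM in untreated mutants and 8.03, 12.2 and 30.2 CPM in untreated wild type. In both, replicates 2 and 3 of the mutants lay within the range of wild type or below it. The log2 fold changes were 1.91 ± 0.87 for *dod-24* and 0.91 ± 0.78 for *irg-4*, and -0.07 and -0.21 without replicate 1 of the untreated mutants. DESeq2 gave no p-value for *dod-21* and *dod-24*.

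**Figure D2:**
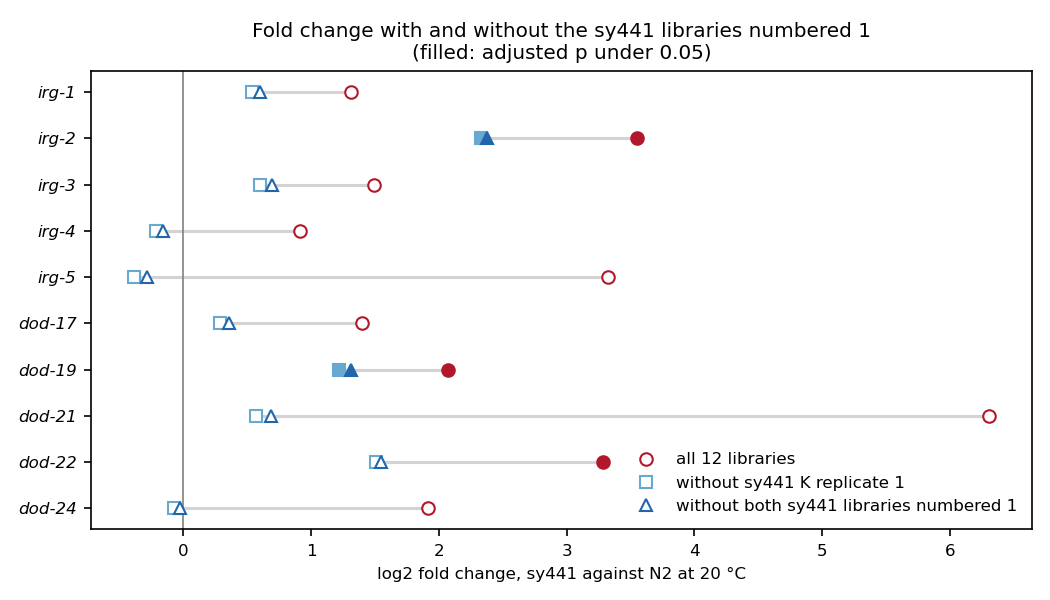
Log2 fold change of the 10 genes in untreated mutants against untreated wild type, from all 12 libraries, without replicate 1 of the untreated mutants, and without both mutant libraries numbered 1; filled symbols have an adjusted p under 0.05. *irg-2* and *dod-19* are filled in all 3 fits, *dod-22* in the first, and *irg-4*, *irg-5* and *dod-24* are below 0 in the other 2.

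After heat shock the same genotypes were compared to ask whether the difference remains under stress. Only *dod-19* was called, as higher in the mutants, where 2.7% of all tested genes passed and 2.32% as higher. It had 259, 180.3 and 182 CPM in heat-shocked mutants, against 48.1, 71.0 and 81.4 CPM in heat-shocked wild type. The groups were well apart, as were those of 18% of tested genes in the same direction, with a log2 fold change of 1.63 ± 0.37 (3.10-fold, adjusted p = 0.0322, edgeR). The call was lost on leaving out any 1 of the 6 libraries (log2 fold change 1.29 to 1.73, adjusted p from 0.0537 to 0.164), and was made without both mutant libraries numbered 1 (1.42, adjusted p = 0.0130). The adjusted p over all 16 alternatives ran from 0.000392 to 0.164. Over all tested genes, 140 to 234 were called with 1 of the 6 libraries left out, against 485 with all. Without both mutant libraries numbered 1 the count was 304. All 10 fold changes were above 0, against 53.3% of tested genes, with a median of 1.27 against 0.04 over all tested genes. Without both mutant libraries numbered 1 the median of the 10 was 0.27.

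*irg-2* was the gene whose genotype difference was not seen after heat shock. It had 56.9, 16.08 and 22.1 CPM in heat-shocked mutants and 41.3, 22.7 and 30.8 CPM in heat-shocked wild type. The wild type values lay inside the range of the mutants, and the log2 fold change was 0.00 ± 0.60 (adjusted p = 0.998, edgeR). *dod-22* had 38.4, 11.1 and 21.3 CPM in heat-shocked mutants and 13.2, 5.04 and 10.1 CPM in heat-shocked wild type, a log2 fold change of 1.32 ± 0.73 (adjusted p = 0.358, edgeR). *irg-5* had 257, 8.85 and 25.7 CPM in heat-shocked mutants and 7.39, 9.03 and 11.5 CPM in heat-shocked wild type. Replicate 1 was far above the rest, replicate 3 also lay above all wild type libraries, and replicate 2 lay within their range. Its log2 fold change was 3.38 ± 1.50 (adjusted p = 0.258, edgeR), and 0.88 without both mutant libraries numbered 1.

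The other 6 genes overlapped between the heat-shocked genotypes as well. *irg-1* had 1.55 to 2.58 CPM in heat-shocked mutants and 0.939 to 1.64 CPM in heat-shocked wild type. *irg-3* had 3.92 to 21.8 CPM in heat-shocked mutants and 3.80 to 5.76 CPM in heat-shocked wild type, with only replicate 2 of the mutants inside the wild type range. *irg-4* had 6.81 to 61.5 CPM in heat-shocked mutants and 8.89 to 25.5 CPM in heat-shocked wild type. Of the CUB-like genes of chromosome IV, *dod-17* had 3.67 to 9.65 CPM in heat-shocked mutants and 2.76 to 3.82 CPM in heat-shocked wild type. *dod-21* had 0.174 to 17.6 CPM in heat-shocked mutants and 0.294 to 0.397 CPM in heat-shocked wild type, the 17.6 CPM being 58.5 times the mean of the other 2 mutant libraries. *dod-24* had 10.8 to 75.1 CPM in heat-shocked mutants and 8.24 to 16.02 CPM in heat-shocked wild type. The log2 fold changes of these 6 genes lay between 0.66 for *irg-1* and 4.13 for *dod-21*, with adjusted p of 0.247 or more.

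**Figure D3:**
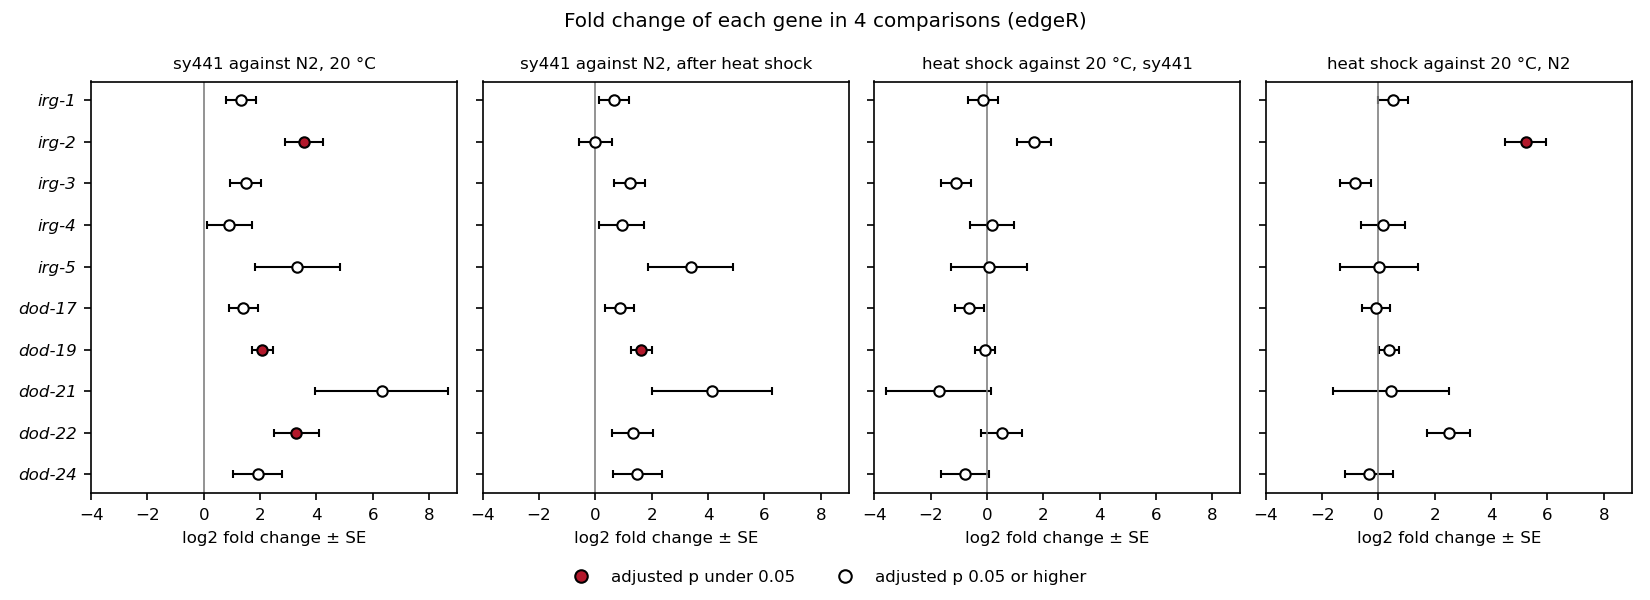
Log2 fold change ± SE (edgeR) of the 10 genes for mutants over wild type, untreated and heat-shocked, and for heat-shocked against untreated animals of each genotype; filled points have an adjusted p under 0.05. *irg-2* is filled in untreated mutants and in heat-shocked wild type (5.22), *dod-19* in both comparisons of genotypes, and *dod-22* in untreated mutants.

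Heat shock in wild type raised 1 of the 10 genes, *irg-2*, where 1% of all tested genes passed (0.78% as higher). *irg-2* had 41.3, 22.7 and 30.8 CPM in heat-shocked wild type, against 0.647, 0.476 and 1.39 CPM in untreated wild type. The lowest heat-shocked library was far above the highest untreated library. The log2 fold change was 5.22 ± 0.72 (SE, n = 3 per group, 37.4-fold, adjusted p = 0.00329, edgeR). It passed in 14 of 15 alternatives (adjusted p from 3.75e-16 to 0.0958) and was lost when replicate 3 of untreated and replicate 1 of heat-shocked wild type were left out together, with a log2 fold change of 5.57. *dod-22* also showed no overlap, with 13.2, 5.04 and 10.1 CPM in heat-shocked wild type and 0.898, 1.19 and 2.93 CPM in untreated wild type. Its log2 fold change of 2.49 ± 0.77 had an unadjusted p of 0.00641 (edgeR) and an adjusted p of 0.233. *irg-3* went the other way, with 5.76, 3.80 and 4.48 CPM in heat-shocked and 8.20, 9.38 and 7.23 CPM in untreated wild type. These groups did not overlap either, and the log2 fold change was -0.82 ± 0.54 (adjusted p = 0.904, edgeR). Groups without overlap made up 14% of all tested genes in this comparison. The other 7 genes overlapped, with log2 fold changes from -0.34 for *dod-24* to 0.52 for *irg-1*.

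Heat shock in the mutants gave no call among the 10 genes in the fit of all libraries, where 0.568% of tested genes passed, and none had groups without overlap (12% of tested genes). One gene, *irg-2*, had an unadjusted p under 0.05 (0.0169, adjusted p = 0.446, edgeR), and DESeq2 called none. *irg-2* had 56.9, 16.08 and 22.1 CPM in heat-shocked mutants and 20.2, 5.42 and 4.15 CPM in untreated mutants. Within each replicate number the heat-shocked library was the higher, while the groups overlapped because replicate 1 was high in both. *irg-3* had 21.8, 3.92 and 7.17 CPM in heat-shocked mutants and 41.4, 14.0 and 14.6 CPM in untreated mutants, lower after heat shock in each replicate number. No label says whether same-numbered libraries were matched. In these 6 libraries, deviations of same-numbered libraries from their group means correlated across genes at 0.342, 0.336 and 0.199. Between heat-shocked mutants and heat-shocked wild type, the same values were 0.225, 0.253 and -0.0124. When only the mutants' libraries were fitted, with the replicate as a block (an alternative added after the data were seen), both genes were called. That fit rests on the assumed pairing, and it called 619 genes over all tested, against 102 in the fit of all libraries. It gave a log2 fold change of 1.84 for *irg-2* (adjusted p = 0.00172, with 0.00172 to 0.983 over all 16 alternatives) and of -1.23 for *irg-3* (adjusted p = 0.0143, with 0.0143 to 1 over all 16). None of the other 8 genes passed in that fit, *dod-21* being nearest (-1.10, adjusted p = 0.0926).

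The response of *irg-2* to heat was smaller in mutants than in wild type in size, but the interaction of genotype and heat shock was not called (log2 difference -3.55 ± 0.88, unadjusted p = 0.00138, adjusted p = 0.884, edgeR), and no member passed where 0.0111% of tested genes did. DESeq2 called *irg-2* (-3.46, adjusted p = 0.0210) and called 30 genes over all tested genes, against 2 in the edgeR fit. The adjusted p of *irg-2* over all 21 alternatives ran from 0.0210 to 1. None of the other 9 genes had an unadjusted p under 0.05. The interaction uses the same 12 libraries as the comparisons above.

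Averaged over both temperatures, 7 of the 10 genes were higher in mutants, against 15.2% of tested genes called higher and 20.5% called in either direction. These were *irg-2*, *irg-3*, *irg-5*, *dod-17*, *dod-19*, *dod-21* and *dod-22*, with log2 fold changes from 1.13 for *dod-17* to 5.22 for *dod-21* and a median over the 10 genes of 1.74, against 0.09 over all tested genes. *irg-1*, *irg-4* and *dod-24* did not pass (adjusted p = 0.0786, 0.270 and 0.0677). Without both mutant libraries numbered 1 only *dod-19* passed, and the median was 0.39. In that fit 1756 genes were called over all tested genes, against 3679 with all libraries. On leaving out 1 library at a time, *irg-2*, *dod-19* and *dod-22* passed in 12 of 12 fits, *irg-3* in 5, *dod-17* in 4, *dod-21* in 3 and *irg-5* in 1. The count of the 10 genes called was 3 without replicate 1 of heat-shocked mutants, replicate 1 of untreated mutants, replicate 2 or 3 of heat-shocked wild type, or replicate 1 or 2 of untreated wild type, and 4 without replicate 2 of heat-shocked mutants or replicate 1 of heat-shocked wild type. It was 5 without replicate 3 of untreated wild type, 6 without replicate 3 of either mutant group, and 9 without replicate 2 of untreated mutants. Calls over all tested genes were 2519 to 4483 in these 12 fits. With the replicate block the count was also 4, with 3432 genes called over all tested genes.

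Levels were compared between genes as TPM, which corrects for exon length. In untreated mutants the means ran from 3.58 ± 2.41 for *irg-1* to 175 ± 118 for *dod-19*, and in untreated wild type from 0.244 ± 0.250 for *dod-21* to 40.2 ± 5.63 for *dod-19* (SD, n = 3). *dod-19* was thus the most abundant of the 10 in both genotypes. In untreated wild type *irg-4* (16.8 ± 11.9), *dod-24* (14.5 ± 8.12), *irg-3* (12.7 ± 1.59) and *irg-5* (9.05 ± 4.96) followed within their spread. Below them came *dod-17* at 3.27 ± 0.710 TPM. *dod-22* (1.47 ± 0.980), *irg-1* (1.39 ± 0.812) and *irg-2* (0.793 ± 0.469) lay within their spread of each other, with *dod-21* last. In untreated mutants *irg-5* (95.8 ± 152), *dod-24* (57.1 ± 72.2) and *dod-21* (20.3 ± 34.5) had SDs above their means. *irg-3* had 37.0 ± 26.2 TPM and *irg-4* had 32.8 ± 29.9 TPM. In heat-shocked animals *irg-2* reached 32.1 ± 20.9 TPM in mutants and 30.95 ± 8.08 TPM in wild type.

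The 10 genes varied together over the libraries. Of the 45 pairs, the median Pearson r of log2 CPM over the 12 libraries was 0.671, and 0.776 after the group means were removed. The highest was 0.952 for *irg-5* and *dod-21*, and the lowest -0.02 for *irg-2* and *irg-3*. *dod-17* and *dod-24* had 0.929, and *irg-2* and *dod-22*, which were both higher without overlap in heat-shocked against untreated wild type, had 0.889. For *irg-2* and *dod-24* the value was 0.327 over all libraries but 0.975 within groups, so that they shared the high libraries and differed in the response to heat. The points share the mutant libraries numbered 1, and these values are a description with no test. Of 12634 other genes with a mean of at least 1 CPM, those most like the mean profile of the 10 were *R07E3.4* (0.983), *ptr-8* (0.982), *gst-38* (0.979), *B0238.12* (0.975), *nnt-1* (0.966), *crm-1* (0.966), *far-3* (0.965), *apl-1* (0.965), *sysm-1* (0.964) and an unnamed locus, WBGene00014732 (0.963). Of these, *gst-38*, a glutathione S-transferase gene, and *crm-1* were higher in untreated mutants (adjusted p = 0.0488 and 0.0473, edgeR). *sysm-1* is known as a further infection-induced gene of the gut. The genes were picked for likeness to a profile highest in the mutant libraries numbered 1, so these calls are no separate support.

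The *dod* genes of chromosome IV lie in a stretch of 65.6 kb from *irg-6* to *dod-17*, with 30 annotated genes of which 18 were tested. Neighbours there did not move as a block. *C32H11.9*, next to *dod-21*, held 163 times more in replicate 1 of the untreated mutants than the mean of the other 2 libraries, against 139 times for *dod-21*, and its log2 fold change in untreated mutants was 5.64 (adjusted p = 0.163, edgeR). *C32H11.4*, *F55G11.4*, *F55G11.8* and *irg-6* had log2 fold changes from 1.49 to 2.75. These values rested on replicate 1 of the untreated mutants: without it *C32H11.9* had -0.34, *C32H11.4* 0.81, *F55G11.8* 0.83, *F55G11.4* 0.21 and *irg-6* -0.40. *F55G11.7* had 3.83 at no more than 0.726 CPM in any library. *C32H11.11*, on the other side of *dod-21*, had -4.69 (0.0278 CPM in untreated mutants and 0.758 CPM in untreated wild type, on average), *C32H11.8* had -3.92 at similarly low counts and *C32H11.5* had -2.36. Of the 18 genes *dod-22* alone was called at 20 °C.

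**Figure D4:**
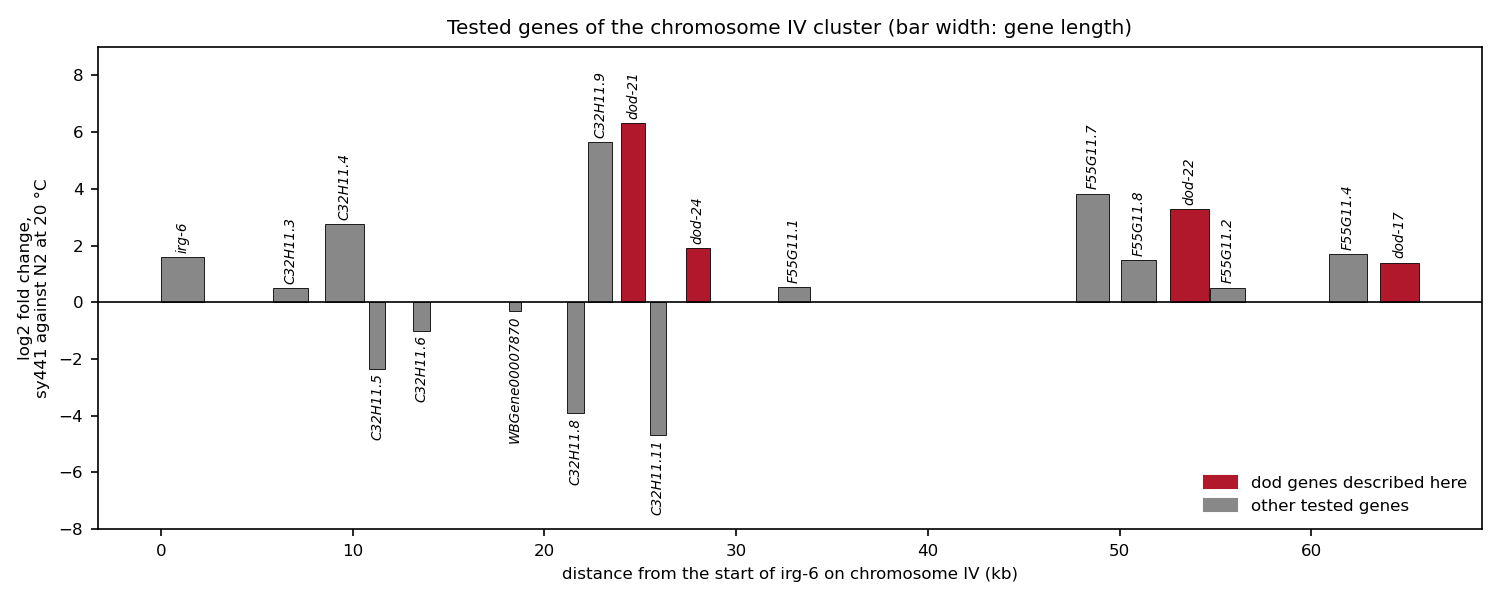
Log2 fold change in untreated mutants against untreated wild type (edgeR) of the 18 tested genes from *irg-6* to *dod-17*, placed by their distance in kb from the start of *irg-6*; bar width is gene length. *dod-21* (6.31) and *C32H11.9* (5.64) stand next to *C32H11.11* (-4.69) and *C32H11.8* (-3.92).

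Of 74 tested neighbours within 20 kb of the 10 genes, untreated mutants had 11 higher and 0 lower, where 6.24% of all tested genes were called higher. Of the 11, 3 lay near *irg-2* and 5 near *irg-5*. Without replicate 1 of the untreated mutants 5 of the 11 passed, in a fit that called 280 of all tested genes, against 1226 with all libraries. Next to *irg-2*, *C49G7.12*, *C49G7.10* and *C49G7.7* were called, with log2 fold changes of 2.99, 2.02 and 2.65. The first 2 also rose in heat-shocked wild type, by log2 fold changes of 2.91 and 2.43 (adjusted p = 0.0246 and 0.0407, edgeR). *C49G7.12* had 8.36 ± 2.84 CPM in heat-shocked mutants, 5.89 ± 5.45 CPM in untreated mutants, 5.57 ± 1.37 CPM in heat-shocked wild type and 0.738 ± 0.0761 CPM in untreated wild type (SD, n = 3). Untreated wild type was thus the lowest of the 4 groups, as for *irg-2*. *C49G7.12* kept its call without replicate 1 of the untreated mutants (1.71, adjusted p = 0.0322), whereas *C49G7.10* (1.21, adjusted p = 0.195) and *C49G7.7* (1.18, adjusted p = 0.320) did not.

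Around *irg-5*, 5 genes were called at 20 °C, although *irg-5* itself was not: *dct-17*, a CUB-like gene, *T01D3.6*, *F35E12.6*, *F35E12.2* and the pseudogene WBGene00009428. The pseudogene had the largest difference, with 4.27 ± 3.22 CPM in untreated mutants and 0.291 ± 0.107 CPM in untreated wild type, and a log2 fold change of 3.87 (adjusted p = 0.00161, edgeR). It also rose in heat-shocked wild type (log2 fold change 3.52, adjusted p = 0.00511, edgeR), as did *F35E12.9* (2.25) and the claudin-like gene *cld-9* (1.76). *dct-17* had 28.0 ± 4.94 CPM in heat-shocked mutants and 6.21 ± 1.18 CPM in heat-shocked wild type, and 20.4 ± 12.5 CPM in untreated mutants and 4.14 ± 0.854 CPM in untreated wild type. Apart from *F35E12.6*, the neighbours called at 20 °C passed without replicate 1 of the untreated mutants. Elsewhere *C25G4.7* near *irg-4*, and *K10D11.5* and *K10D11.2* near *dod-17*, were called higher in untreated mutants, and *Y39D8A.1* near *dod-19* fell in heat-shocked wild type. Reads of the near-identical members of such families may be split or dropped, since the handling of multiply mapped reads was not stated.

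Of the 8 tested *irg* and *dod* genes outside the set, 1 was called in untreated mutants against untreated wild type. *dod-18* was lower in untreated mutants, with 19.7 ± 4.27 CPM against 57.7 ± 33.2 CPM in untreated wild type (log2 fold change -1.55, adjusted p = 0.0255, edgeR). None of the others passed in that comparison: the log2 fold change was 1.59 for *irg-6*, 1.35 for *dod-23*, 1.10 for *irg-7*, 0.98 for *dod-3*, 0.72 for *irg-8*, 0.36 for *dod-20* and 0.35 for *dod-6*. Heat shock in the mutants raised 1 of the 8, and averaged over both temperatures 2 were higher and 1 lower in mutants. Without replicate 1 of the untreated mutants *dod-18* kept its fold change but did not pass (-1.55, adjusted p = 0.0831), and the median of the 8 was -0.22, against 0.85 with it.

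Of 17 tested effectors of the intestinal response to infection, 9 were higher in untreated mutants and none was lower, with a median log2 fold change of 2.22. They included *dct-17* (2.303) and the lysozyme genes *lys-7* (2.22), *lys-1* (1.82) and *lys-8* (1.77). Without replicate 1 of the untreated mutants 2 of the 17 passed and the median was 1.31, and without both mutant libraries numbered 1, 5 passed. Calls over all tested genes were 280 and 284 in these fits, against 1226 with all libraries. Among 15 regulators of the p38 and ZIP-2 pathways, 3 were higher: *cebp-1* (2.20) and *zip-2* (0.92), which encode bZIP factors, and *tir-1* (1.22), the adaptor upstream of the p38 cascade. The p38 gene *pmk-1* itself had a log2 fold change of -0.08, and none of the 15 passed without replicate 1 of the untreated mutants. In insulin-like signalling only *sgk-1*, a kinase gene, passed of 9 (1.06), and *daf-16* had 0.14. Over all tested genes 6.24% were called higher, and none of these 9 passed without replicate 1 of the untreated mutants. Of 12 genes that DAF-16 activates, 4 were higher, *sod-3* (2.90), *gst-10* (1.65), *ctl-2* (1.58) and *ftn-1* (1.99), and 1 of these 12 passed without replicate 1 of the untreated mutants and 0 without both mutant libraries numbered 1. Of 8 tested genes of the intracellular pathogen response 3 were higher, *pals-6*, *skr-4* and *skr-5*, and none passed without that library.

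**Figure D5:**
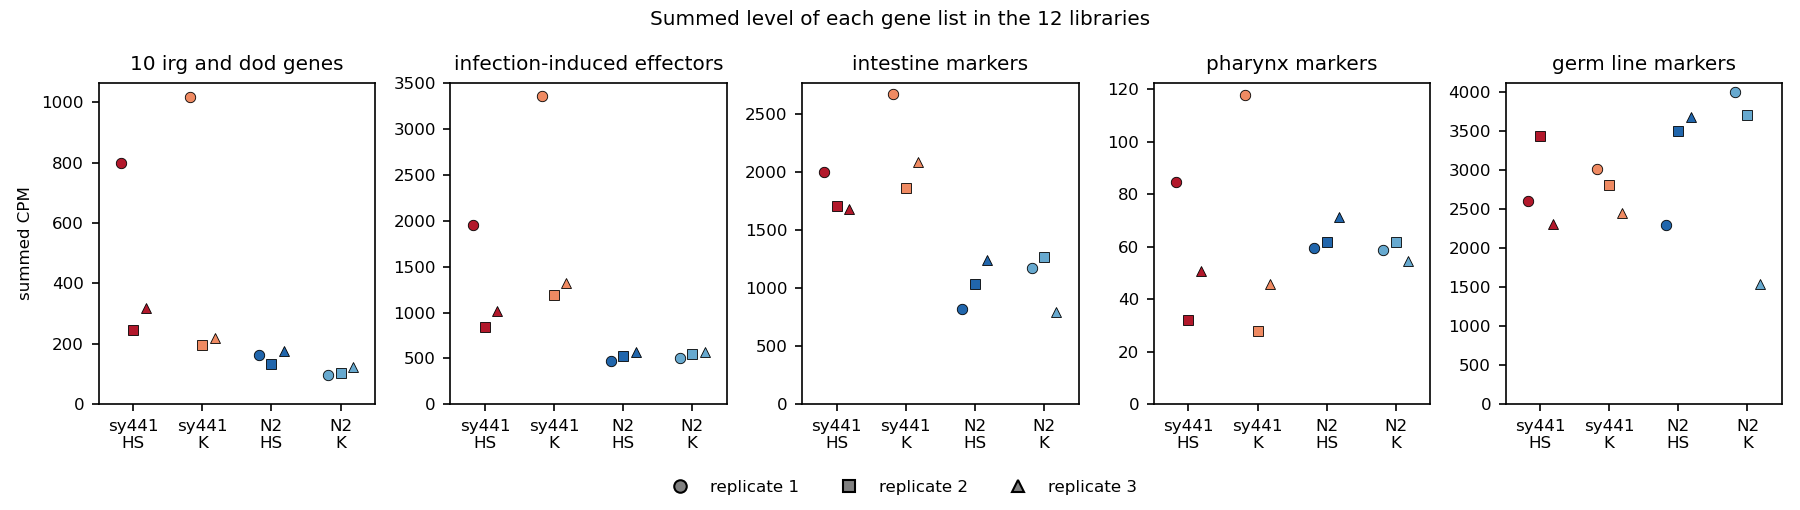
Summed CPM (linear axes from 0) of the 10 *irg* and *dod* genes, 17 infection-induced effectors, 12 intestine, 4 pharynx and 7 germ line markers in each library; symbols mark the replicate number. The sum of the 10 genes reaches 1018 CPM in replicate 1 of the untreated mutants and does not exceed 176 CPM in wild type, and intestine markers are higher in all 6 mutant than in all 6 wild type libraries.

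Markers of other tissues were read beside these results. In untreated mutants 3 of 6 body wall muscle markers and 3 of 8 sperm markers were higher (median log2 fold changes 1.04 and 2.04), the sperm calls being *msp-31*, *msp-40* and *ssp-9*. Without replicate 1 of the untreated mutants 3 sperm markers and no muscle marker passed. None of the 4 pharynx, 5 epidermis, 6 neuron or 7 germ line markers passed with all libraries, while 1 epidermis marker was lower without replicate 1 of the untreated mutants and 2 were lower without both mutant libraries numbered 1. Replicate 3 of untreated wild type stood apart, with summed germ line markers of 1542 CPM against 3702 to 3995 CPM in replicates 1 and 2, and it held the highest level of its group for 6 of the 10 genes and for 48.6% of all tested genes. Without it, *irg-2* and *dod-19* passed at 20 °C and the median log2 fold change of the 10 genes was 2.26. The part of tissue composition in the differences was not tested.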

How the data were processed

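Whole day 1 adults were measured by RNA-seq of poly(A)-enriched RNA. The deposited values are raw read counts per gene, which the authors made with FastQC, HISAT2 and HTSeq on WBcel235 per the labels and processing notes. Tool versions, strand setting, annotation release and the handling of multiply mapped reads are not given in the sources used here. The sample titles and treatment labels gave the groups.

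Counts were analysed in R 4.3.3 with edgeR 4.0.16. Genes were filtered with filterByExpr on the 4 groups (17946 of 46934 kept), scaled by TMM, and fitted with 1 mean per group and the robust quasi-likelihood F test over all 12 libraries. The Benjamini-Hochberg adjustment ran over all tested genes, and an adjusted p under 0.05 was a call. SEs follow from the fold change and F. CPM used TMM-scaled library sizes; TPM used union exon length of the annotation of WBcel235, and log2 CPM a prior count of 2. DESeq2 1.42.0 was an alternative, as were other size factors, no filter, no robust estimation, a newer fit, only the groups compared, a replicate block, a minimum log2 fold change of 1, and leaving out libraries. The scripts were tested on simulated data. Median depth was 79763950 counts.

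All 10 genes were named, and of the lists up to 4 called genes with the smallest adjusted p at 20 °C, all other *irg* and *dod* genes, called neighbours within 20 kb, and the 10 genes most alike in pattern. Members, lists and tests were chosen with earlier results of these data known. One listed effector, *F49F1.6*, had no match. Motif counts in promoters and protein sequences were not analysed here. GATA sites were copied from the study's own list, sequences only, as distinct sequences holding GATAA and not contained in a longer one.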

Additional observations from a re-analysis of the deposited data

How the results depend on the processing

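The number of the 10 genes called depended mostly on single libraries. On leaving out 1 library at a time, 1 to 3 genes were called in untreated mutants against wild type, 0 after heat shock, 1 for heat shock in wild type, 0 for heat shock in mutants, 0 for the interaction and 3 to 9 for the average of both temperatures. Without both mutant libraries numbered 1, 1 gene was called in that average. Calls over all tested genes changed in the same fits. Leaving out 1 library at a time gave 280 to 1373 in untreated mutants against wild type, where all libraries gave 1226. After heat shock it gave 140 to 234, against 485, and in the average 2519 to 4483, against 3679. The average had 1756 without both mutant libraries numbered 1. Without replicate 3 of untreated and replicate 1 of heat-shocked wild type, *irg-1*, *irg-2* and *dod-19* were called in untreated mutants. In that fit 0 genes were called after heat shock, 0 for heat shock in wild type, and 4 in the average. Its calls over all tested genes were, in the same order, 2364, 673, 140 and 5299, against 1226, 485, 180 and 3679 with all libraries. The replicate block left 4 genes in the average and changed no other count by more than 1.5 times. Fitted to the mutant libraries alone, with pairing by number assumed, it called 2 genes for heat shock (over all genes 619, against 102). DESeq2 called 1 gene in the interaction (over all genes 30, against 2). The cause was not tested. Deviations of same-numbered wild type libraries correlated at -0.363 to 0.218, and those of mutant with wild type libraries did not all exceed 0.1. Pairing by number was thus not taken as shown for these. Over all 10 genes, comparisons and alternatives, 897 fold changes kept their direction and their side of the threshold, 69 lost a call, 8 gained one and 76 changed sign with no call in either fit. No called gene changed its direction in any alternative. With 3 libraries a group, spreads reached 169.5% of the mean (*dod-21* in untreated mutants, a gene with 4 to 39 counts in untreated wild type), and a difference that did not pass is not shown to be absent. The part of depth in missed calls was not tested.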
